A study of Mus musculus with 10 samples.

Results

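Retinal ganglion cells are the output neurons of the retina, and 10 genes by which they are recognised were followed in whole retinas of mice injected with either of a pair of viral vectors. The genes were taken by symbol from a table of 57010 Ensembl genes. They are the transcription factors Pou4f1, Pou4f2 and Pou4f3, the neurofilament genes Nefl, Nefm and Nefh, and the pan-ganglion markers Rbpms, Slc17a6, Sncg and Thy1. All 10 were found and all 10 passed the filter on low counts. The mice were 6 to 8 weeks old and had received green fluorescent protein (GFP) by injection into the vitreous, 5 mice in an adeno-associated virus (AAV) of capsid AAV2 and 5 in the capsid AAV206. Retinas were taken 14 days later for bulk RNA sequencing. All 10 mice had thus been injected and carried the same reporter. Strain, sex and the promoter driving GFP were not given in the sources used here, and no uninjected retina was analysed here. Every difference given is between the capsids and none is from a baseline. The study's title concerns a vector for the retinal pigment epithelium, and AAV2 is the capsid it was set against.

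The Pou4f genes encode the Brn3 family of POU-homeodomain factors, which specify ganglion cells and keep their identity and axon programs running. Most mature ganglion cells hold Pou4f1, Pou4f2 or both, and Pou4f3 marks a smaller set. Neurofilament light, medium and heavy chains assemble into the intermediate filaments that set axon calibre, and in the retina they are most abundant in ganglion cells, with some in horizontal cells. Rbpms is an RNA-binding protein found in nearly all ganglion cells and also in vascular mural cells. Slc17a6 encodes the vesicular glutamate transporter VGLUT2, Sncg encodes gamma-synuclein, and Thy1 encodes a surface glycoprotein that T lymphocytes also carry in mice.

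Pou4f1 and Pou4f2 lie on different chromosomes and are close relatives, so their sequences are shown first to let a reader see how far reads could tell them apart. The stretches below are the last 180 coding bases of each, which encode most of the POU homeodomain, in the GENCODE M21 transcripts of build GRCm38. They lie at chr14:104465732-104465911 (Pou4f1, minus strand) and chr8:78434740-78434919 (Pou4f2, minus strand), and capitals mark the positions at which the pair differ.
Pou4f1: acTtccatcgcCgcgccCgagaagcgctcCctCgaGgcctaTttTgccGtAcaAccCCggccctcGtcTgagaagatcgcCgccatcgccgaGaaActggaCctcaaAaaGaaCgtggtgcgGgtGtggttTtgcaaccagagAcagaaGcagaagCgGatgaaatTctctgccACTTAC
Pou4f2: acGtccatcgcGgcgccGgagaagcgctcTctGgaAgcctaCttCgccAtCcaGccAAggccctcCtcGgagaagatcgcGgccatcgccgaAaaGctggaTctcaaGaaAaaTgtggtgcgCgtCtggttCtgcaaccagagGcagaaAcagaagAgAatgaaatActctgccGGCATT
The stretches differed at 36 of 180 positions, and 28 of these were the last base of a codon. Over the whole transcripts the longest exact run shared by Pou4f1 and Pou4f2 was 71 bases, against reads of 150 bases. Pou4f1 shared at most 41 bases with Pou4f3, and Pou4f2 at most 35. The counts of all 3 factors were whole numbers in every library.

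The neurofilament genes differed in this respect. Nefl and Nefm are neighbours on chromosome 14, and 1 of the 2 annotated Nefm transcripts runs across the Nefl locus on the opposite strand. The exons overlap over 1108 bases (chr14:68083863-68084970, GRCm38). Both genes carried decimals in all 10 libraries, the sign of reads divided between genes, and the sum of the pair was whole to within 0.01 in all 10. Their separate levels are therefore uncertain, while the sum is not affected by the division. The other 8 genes had whole counts throughout.

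Total counts were between 10989843 and 12752604 per library, and their ranges overlapped between the groups. The unit of level is CPM, a count relative to the TMM-adjusted total of its library, and 3 counts correspond to 0.232 to 0.274 CPM, far below every level reported for the 10 genes. These floors cover counting error only. AAV2-GFP replicate 1 stood apart in immune genes: 6 microglia and macrophage genes summed to 136 CPM there against 16.3 to 33.6 CPM in the other 9 libraries, and 7 T lymphocyte genes to 19.35 CPM against 0.449 to 1.35 CPM. Of summed markers of other cells, those of rods (50080 to 53270 CPM with AAV2-GFP, 53680 to 59050 with AAV206-GFP), cones (757 to 816 and 830 to 874), endothelium (189 to 209 and 151 to 178) and erythrocytes (64.1 to 78.7 and 96.7 to 299.7) did not overlap between the groups. The sums overlapped for bipolar, amacrine, horizontal, Müller glia, astrocyte, oligodendrocyte and pigment epithelium markers. Oligodendrocyte markers, of the optic nerve, were uneven within both groups. They summed to 44.4 to 56.8 CPM in AAV2-GFP replicates 1 and 4 and AAV206-GFP replicates 2 and 4, and to 118.5 to 297 CPM in the other libraries. Lens markers were at 8.98 to 27.7 and 0.182 to 9.51 CPM, and of these 4 genes Lim2 was at 0 in all libraries. The part of these differences in the results below was not tested.

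Of the 10 ganglion cell genes, 1 passed the gene-wise test: Pou4f1 fell with AAV206-GFP, and none rose (edgeR quasi-likelihood test, Benjamini-Hochberg adjusted p under 0.05). Over all 15539 tested genes 11.2% passed, so 1 in 10 is near the background; lower calls alone made up 5.30% and higher ones 5.95%. Differences are given as log2 fold changes of AAV206-GFP over AAV2-GFP, and 8 of the 10 were below 0, beside 51.8% of all tested genes. Some markers of other cells leaned the same way (6 of 6 for Müller glia, 4 of 5 for endothelium). Others did not (1 of 6 for cones, 3 of 8 for amacrine cells). The median over the 10 genes was -0.15, beside -0.0095 over all tested genes. By role the medians were -0.37 for the Pou4f factors, -0.16 for the neurofilaments and -0.05 for the 4 pan-ganglion markers. The groups did not overlap in 2 of the 10, Pou4f1 and Nefm, both lower, against 9.78% of all tested genes in either direction and 4.36% lower. In bulk tissue, fewer cells of a type and less RNA per cell cannot be told apart.

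**Figure D1:**
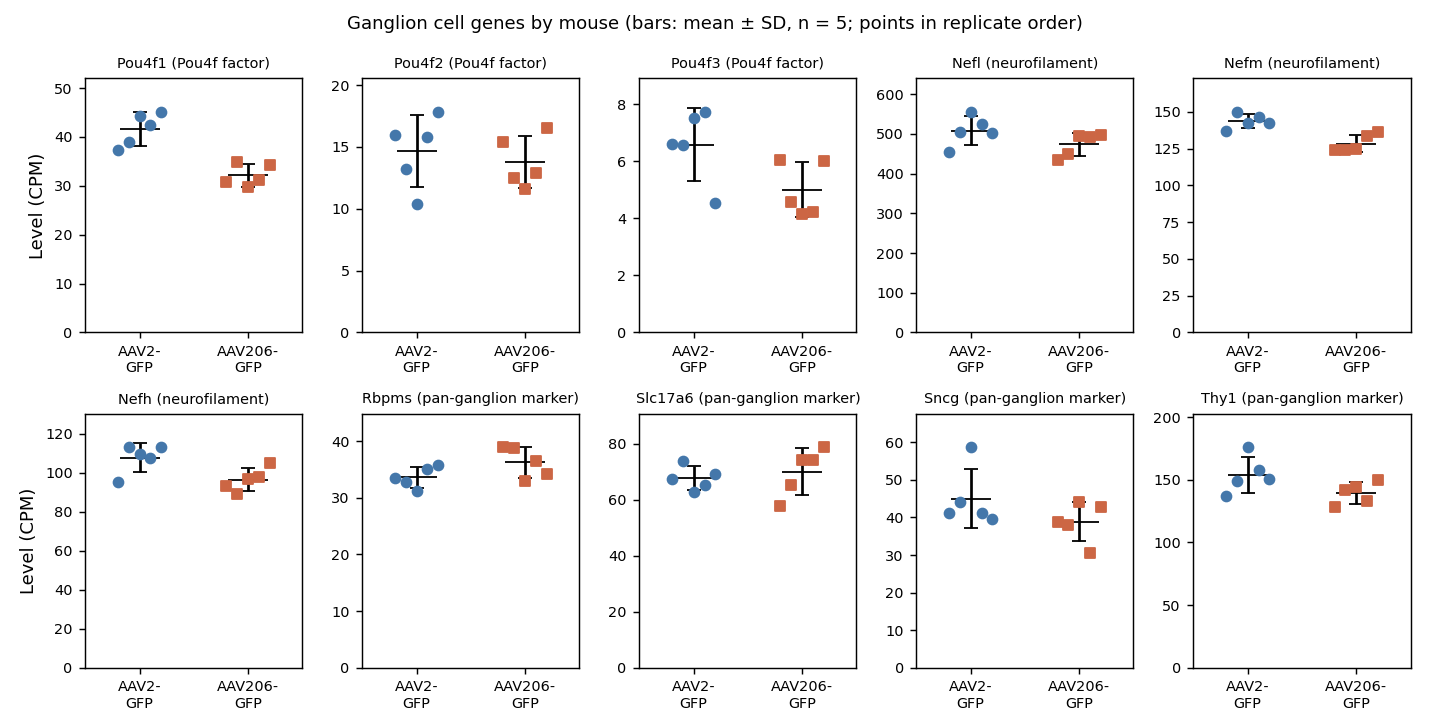
Level in CPM (linear axis from 0) of each of the 10 genes in every mouse, blue circles for AAV2-GFP and orange squares for AAV206-GFP, with mean and SD (n = 5). For Pou4f1 every AAV206-GFP mouse (29.8 to 34.9 CPM) lies under every AAV2-GFP mouse (37.3 to 45.2 CPM), while the groups overlap for Pou4f2, Rbpms and Slc17a6.

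Pou4f1 (ENSMUSG00000048349, chr14:104461676-104467999, minus strand) was at 37.3, 38.9, 44.4, 42.5 and 45.2 CPM in AAV2-GFP replicates 1 to 5. With AAV206-GFP it was at 30.7, 34.9, 29.8, 31.1 and 34.3 CPM. All 5 AAV206-GFP mice were below all 5 AAV2-GFP mice, and the highest of them was 34.9 against a lowest of 37.3. The AAV206-GFP mean, 32.2 ± 2.31 CPM, was 77.2% of the AAV2-GFP mean of 41.7 ± 3.43 CPM (SD, n = 5). The log2 fold change was -0.37 ± 0.08 (SE), with a 95% interval of -0.54 to -0.21 (edgeR adjusted p = 0.00623). This corresponds to a ratio between 0.688 and 0.865. The spread of Pou4f1 within groups, 8.22% and 7.19% of the mean, was above the 4.81% that counting alone would give. Without AAV2-GFP replicates 1 and 4 together, the log2 fold change was -0.42 (edgeR adjusted p = 0.0127), in a fit where 6.18% of genes passed and 2.85% were lower. It was 1 of the 10 genes to pass there. Replicate 1 stood apart in immune genes, but replicate 4, with a microglia and macrophage sum of 28.3 CPM, did not.

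Pou4f2 (ENSMUSG00000031688, chr8:78433010-78436645, minus strand), the factor closest in sequence, did not pass. Its levels were 16.0, 13.2, 10.4, 15.8 and 17.9 CPM in AAV2-GFP replicates 1 to 5 and 15.4, 12.5, 11.6, 12.9 and 16.5 CPM with AAV206-GFP. Both the lowest and the highest of the 10 mice had received AAV2-GFP, so the AAV206-GFP values lay inside the AAV2-GFP range. The log2 fold change was -0.09 ± 0.15 (SE), with a 95% interval of -0.40 to 0.23 (edgeR adjusted p = 0.742). Leaving out 1 mouse moved it between -0.19 (without AAV2-GFP replicate 3) and -0.0052 (without AAV2-GFP replicate 5). The interval from all mice still contains the change measured for Pou4f1, so the data do not show that the pair responded differently.

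Pou4f3 (ENSMUSG00000024497, chr18:42394539-42397249, plus strand) was the scarcest of the 10, with 47 to 97 counts per library. Its levels were 6.60, 6.56, 7.50, 7.74 and 4.53 CPM with AAV2-GFP and 6.06, 4.56, 4.14, 4.22 and 6.02 CPM with AAV206-GFP. Every AAV206-GFP mouse was below 4 of the AAV2-GFP mice, and AAV2-GFP replicate 5 lay among the AAV206-GFP values. The log2 fold change of -0.40 was as large as that of Pou4f1, but its standard error of 0.19 left a 95% interval of -0.79 to 0.00087 and it did not pass (edgeR adjusted p = 0.180). Counting alone accounts for a spread of 12.1% of the mean at this depth, against 19.2% and 19.3% observed.

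**Figure D2:**
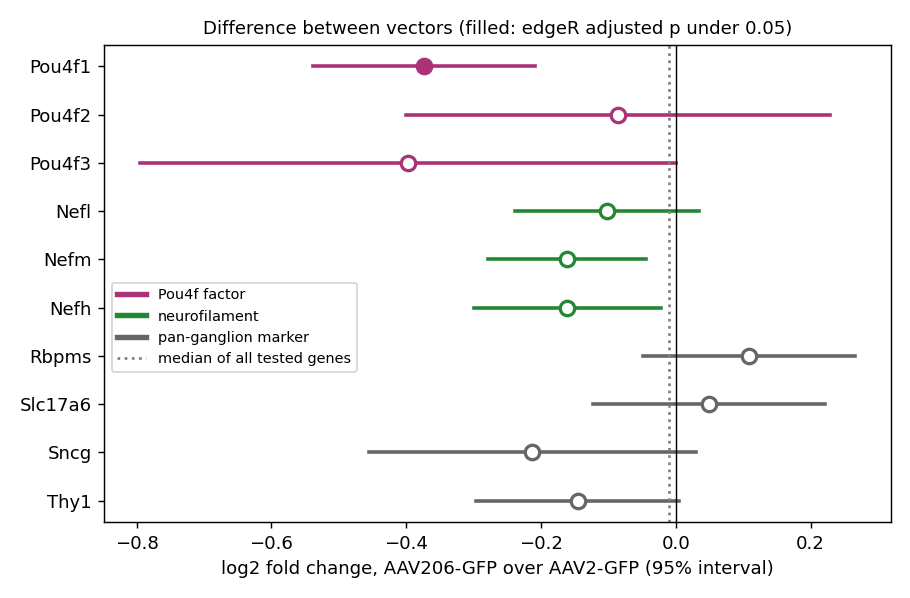
Log2 fold change of AAV206-GFP over AAV2-GFP for each gene with its 95% interval, coloured by role, with the median of all tested genes dotted. Pou4f1 is the filled point (-0.37, edgeR adjusted p = 0.00623), and the intervals of Rbpms and Slc17a6 extend above 0 on the other side of the line.

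None of the 3 neurofilament genes passed, and all 3 log2 fold changes were below 0, as were 51.8% of all tested genes. Of the 3, Nefm and Nefh had an unadjusted edgeR p under 0.05, as did 28.0% of all tested genes. Nefl (ENSMUSG00000022055, chr14:68083863-68089095, plus strand), the light chain, was at 454.2, 505.3, 556.5, 524.4 and 503.0 CPM with AAV2-GFP and at 434.9, 449.8, 494.5, 492.4 and 498.4 CPM with AAV206-GFP. Only 2 AAV206-GFP mice lay under the AAV2-GFP range (log2 fold change -0.10, standard error 0.06, edgeR adjusted p = 0.315). Nefm (ENSMUSG00000022054, chr14:68082590-68124846, minus strand), the medium chain, was at 136.9, 150.2, 142.6, 146.4 and 142.3 CPM with AAV2-GFP and at 123.9, 123.9, 125, 133.4 and 136.1 CPM with AAV206-GFP. Its groups did not overlap, although AAV2-GFP replicate 1 (136.9) and AAV206-GFP replicate 5 (136.1) nearly met. The log2 fold change was -0.16 ± 0.06 (SE) and missed the threshold (edgeR adjusted p = 0.0706). Nefm passed with DESeq2 (adjusted p = 0.0287), by which 14.5% of genes passed. Since Nefl and Nefm shared reads, their sum is the firmer quantity: in the AAV2-GFP mice it averaged 652 ± 39.8 CPM, and in the AAV206-GFP mice 602.5 ± 33.9 CPM (SD, n = 5). The AAV2-GFP sums ran from 591 to 699 CPM and the AAV206-GFP sums from 559 to 634.5 CPM, so the groups overlapped.

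Nefh (ENSMUSG00000020396, chr11:4938754-4948064, minus strand), the heavy chain, had whole counts. It was at 95.1, 113.3, 109.9, 107.8 and 113.3 CPM with AAV2-GFP and at 93.4, 88.9, 97.1, 97.8 and 105 CPM with AAV206-GFP. Apart from AAV2-GFP replicate 1, every AAV2-GFP mouse was above every AAV206-GFP mouse. The log2 fold change was -0.16 ± 0.07 (SE; edgeR adjusted p = 0.120). Without AAV2-GFP replicate 1, Nefh passed at -0.20 (edgeR adjusted p = 0.0459), in a fit where 1912 of all 15699 genes passed. Without both replicates 1 and 4 it did not pass (-0.22, edgeR adjusted p = 0.0851), in a fit where 6.18% of genes passed. Summed markers of horizontal cells, another retinal source of neurofilament RNA, ranged from 176 to 239 CPM with AAV2-GFP and from 195 to 227 CPM with AAV206-GFP.

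None of the 4 pan-ganglion markers passed, none had an unadjusted p under 0.05 (edgeR), and their differences had both signs. Rbpms (ENSMUSG00000031586, chr8:33782643-33929863, minus strand) was at 33.5, 32.7, 31.2, 35.0 and 35.8 CPM with AAV2-GFP and at 39.0, 38.8, 32.9, 36.5 and 34.2 CPM with AAV206-GFP. In 3 AAV206-GFP mice it was above the whole AAV2-GFP range. The log2 fold change was 0.11 ± 0.07 (SE), with a 95% interval of -0.05 to 0.27 (edgeR adjusted p = 0.355). Pericyte and smooth muscle markers, of cells that also express Rbpms, summed to 95.7 to 107 CPM and 81.9 to 103 CPM. The antisense gene Gm26632, annotated within the Rbpms locus, held 5 counts in all 10 libraries together.

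Slc17a6 (ENSMUSG00000030500, chr7:51622006-51671119, plus strand), which loads synaptic vesicles with glutamate, was at 67.4, 73.8, 62.9, 65.2 and 69.2 CPM with AAV2-GFP. With AAV206-GFP it was at 57.6, 65.3, 74.3, 74.1 and 78.8 CPM, so that this group held both the lowest and the 3 highest values. Its log2 fold change was 0.05 with a 95% interval of -0.12 to 0.22 (edgeR adjusted p = 0.731). Leaving out 1 mouse moved it between 0.0040 (without AAV206-GFP replicate 5) and 0.11 (without AAV206-GFP replicate 1). The related transporter Slc17a7, the form used by photoreceptors and bipolar cells, was at 1766 ± 104 and 1756 ± 87.4 CPM (SD, n = 5, log2 fold change -0.0083, edgeR adjusted p = 0.943).

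Sncg (ENSMUSG00000023064, chr14:34370274-34374789, minus strand) was at 41.3, 44.1, 58.8, 41.3 and 39.6 CPM with AAV2-GFP and at 38.79, 38.04, 44.07, 30.68 and 42.73 CPM with AAV206-GFP. For Sncg the log2 fold change was -0.21 with all mice (edgeR adjusted p = 0.236), -0.10 without AAV2-GFP replicate 3 (edgeR adjusted p = 0.571) and -0.14 without AAV206-GFP replicate 4 (edgeR adjusted p = 0.462). Thy1 (ENSMUSG00000032011, chr9:44043384-44048579, plus strand) was at 136.9, 148.8, 176.2, 157.9 and 150.5 CPM with AAV2-GFP and at 128, 141.5, 144, 132.9 and 150.1 CPM with AAV206-GFP. All 5 AAV206-GFP mice were below the AAV2-GFP mean, but the ranges overlapped and the gene did not pass (log2 fold change -0.15, standard error 0.07, edgeR adjusted p = 0.193). Without AAV2-GFP replicate 3 the value for Thy1 was -0.09 (edgeR adjusted p = 0.406). The library with the T lymphocyte genes, AAV2-GFP replicate 1, had the lowest Thy1 level of its group.

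AAV2-GFP replicate 1 was the lowest of its group for 5 of the 10 genes, namely Pou4f1, the 3 neurofilaments and Thy1. AAV2-GFP replicate 3 was the highest for Nefl, Sncg and Thy1 and the lowest for Pou4f2, Rbpms and Slc17a6. Within groups the neurofilaments had an SD of 3.47% to 7.32% of the mean and Rbpms of 5.48% and 7.49%, while Pou4f2 varied by 19.9% and 15.2%.

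Ratios between genes of the same library do not depend on scaling between libraries. Per 100 reads of Rbpms, Pou4f1 had 111.6, 119, 142.4, 121.4 and 126.3 reads with AAV2-GFP and 78.8, 90.1, 90.6, 85.3 and 100.5 with AAV206-GFP. The groups did not overlap, and the means were 124 ± 11.5 and 89.1 ± 7.96 (SD, n = 5). Per 100 reads of Thy1 the ranges were 25.2 to 30.02 and 20.7 to 24.7, again without overlap. Against Slc17a6 the ranges were 52.7 to 70.6 and 40.1 to 53.5, and against Nefl 7.70 to 8.99 and 6.02 to 7.77, each with overlap. Of the 9 ratios of Pou4f1 to another gene, 8 had a lower mean with AAV206-GFP. The exception was Pou4f3, against which the mean was the same in both groups (660 Pou4f1 reads per 100, with 549 to 998 and 507 to 766). The AAV2-GFP mean there includes replicate 5 at 998, while the other AAV2-GFP mice were at 549 to 593. All 9 ratios share Pou4f1 as numerator and restate the fold changes given above, so they are not separate evidence. The 2 ratios without overlap hold genes chosen with earlier results known, and no test was made of them.

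**Figure D3:**
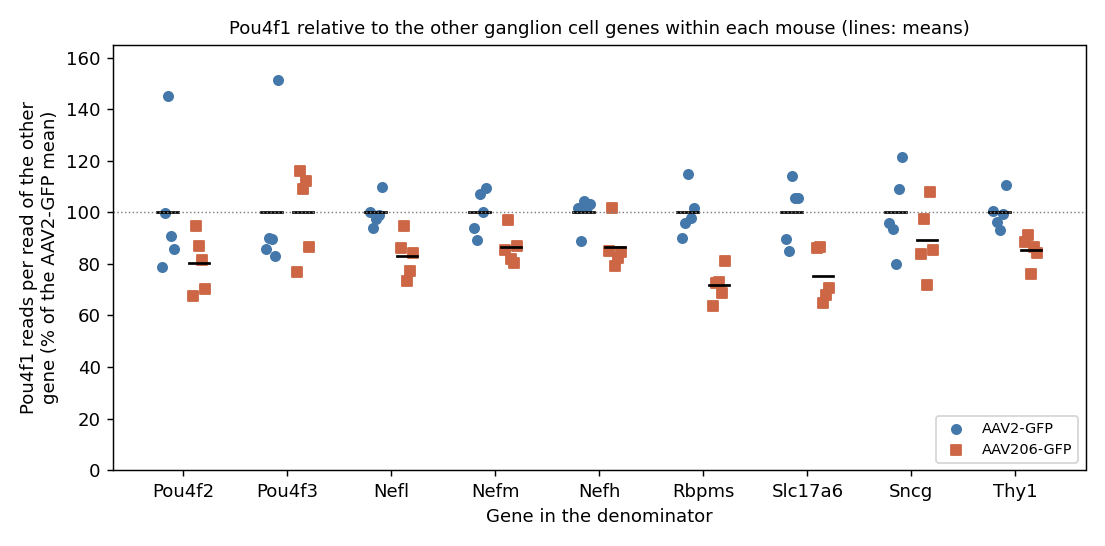
Reads of Pou4f1 per read of each of the other 9 genes in the same mouse, as a percentage of the AAV2-GFP mean, with a line at each group mean. Relative to Rbpms the AAV206-GFP mean is 71.7% and to Slc17a6 75.2%. Relative to Pou4f3 the group means coincide, with AAV2-GFP replicate 5 far above the other AAV2-GFP mice. All 9 ratios share Pou4f1 as numerator, so they are not separate evidence.

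Between genes, levels were compared only per length, as CPM per kilobase of annotated exon. With AAV2-GFP, Nefl was the most abundant at 150.5 ± 11.02, and Pou4f3 the least at 2.75 ± 0.528 (SD, n = 5), 54.8 times less. Sncg (52.8 ± 9.23) and Thy1 (51.4 ± 4.83) followed Nefl and overlapped within 1 SD. Nefh (27.0 ± 1.88) and Nefm (24.8 ± 0.861) came next, also overlapping within 1 SD, then Slc17a6 (12.5 ± 0.773) and Pou4f1 (8.92 ± 0.733). Rbpms (5.13 ± 0.281) and Pou4f2 (4.57 ± 0.909) overlapped within 1 SD as well. With AAV206-GFP the neighbours Sncg (45.6 ± 6.15) and Thy1 (46.5 ± 2.95) changed places, within their spread. The order depends on the gene length used: by the longest transcript, Thy1 was at 88.8 and Rbpms at 13.2 with AAV2-GFP, which put Thy1 above Sncg and Rbpms above Pou4f1. Nefm, at 39.0 ± 1.35, then lay above Nefh (27.0 ± 1.88) and did not overlap it within 1 SD.

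The data do not show that Pou4f1 and Pou4f2 responded differently, and their upstream sequences are given as description only. The 250 bases before each annotated start are shown, from RefSeq on GRCm38.p6, both read along the minus strand. They are chr14:104468000-104468249 for Pou4f1 and chr8:78436648-78436897 for Pou4f2. Capitals mark 4 motifs searched on both strands: the GC box GGGCGG, the E-box CAGCTG, the TATA-like TATAA and the homeodomain core TAATTA.
Pou4f1: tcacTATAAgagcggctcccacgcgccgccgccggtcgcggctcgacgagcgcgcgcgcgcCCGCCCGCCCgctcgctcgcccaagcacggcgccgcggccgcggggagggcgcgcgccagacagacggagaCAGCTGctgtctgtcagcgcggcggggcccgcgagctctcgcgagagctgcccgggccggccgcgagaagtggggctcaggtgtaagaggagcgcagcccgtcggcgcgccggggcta
Pou4f2: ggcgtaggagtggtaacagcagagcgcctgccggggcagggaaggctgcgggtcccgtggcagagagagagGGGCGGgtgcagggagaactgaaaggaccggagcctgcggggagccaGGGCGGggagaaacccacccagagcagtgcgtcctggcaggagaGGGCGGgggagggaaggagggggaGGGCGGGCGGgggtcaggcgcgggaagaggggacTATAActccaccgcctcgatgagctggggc
GGGCGG occurred 2 times before Pou4f1, where the copies overlap, and 5 times before Pou4f2, where 2 overlap. It was present in 32.7% of all 32851 promoter windows of this length. CAGCTG occurred 1 time before Pou4f1 and 0 times before Pou4f2, with a match in 4271 of the windows, and TATAA 1 time in each, against 22.8%. TAATTA was in neither and in 4.84% of windows. Both windows were GC-rich, at 78.0% and 70.8% against a median of 52.4%. These are letter matches and not binding sites. Of the 10 genes 4 had a promoter entry.

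Other ganglion cell genes were examined in 6 lists, which held 79 genes in all, of which 71 were tested. Of these 71, 7 fell and 2 rose (edgeR adjusted p under 0.05), beside 5.30% of all tested genes that were lower and 5.95% that were higher. The median log2 fold change over the 71 was -0.13. Of the 13 tested transcription factors other than Pou4f, 2 had an unadjusted edgeR p under 0.05, Neurod2 and Irx2, as did 28.0% of all tested genes. With DESeq2 1 passed, Neurod2, beside 14.5% of all genes, and with limma-voom 0. None of these 13 factors passed with edgeR at the stated settings on all 10 libraries, in a list holding regulators of ganglion cell development and maintenance. In other edgeR fits 1 of the 13 was lower: with robust dispersions (1786 of all 15539 genes passed), without AAV2-GFP replicate 1 (1912 of 15699) and without AAV206-GFP replicate 1 (1384 of 15702). The most abundant of them were Myt1 (91.1 ± 7.82 and 102 ± 10.5 CPM, log2 fold change 0.16, edgeR adjusted p = 0.189) and Isl1, a partner of the Pou4f factors that bipolar and amacrine cells also express (62.0 ± 7.20 and 65.2 ± 7.29 CPM, log2 fold change 0.07, edgeR adjusted p = 0.647). The list's median was -0.17. Without AAV2-GFP replicates 1 and 4, Neurod2, a neuronal differentiation factor, passed as lower (-0.52, edgeR adjusted p = 0.0256), 1 of 14 tested. In that fit 2.85% of all genes were lower.

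Of 13 further pan-ganglion transcripts none passed with edgeR on all 10 libraries, while with DESeq2 1 passed, Vsnl1, and with limma-voom 0. Without AAV2-GFP replicate 1, 1 of the 13 was lower with edgeR, in a fit where 1912 of all 15699 genes passed. An unadjusted edgeR p under 0.05 was found for 5, namely Vsnl1, Nrn1, Syt1, Stmn2 and Nrgn. Over all tested genes 28.0% had such a p and 14.5% passed with DESeq2. Of the 13 log2 fold changes 11 were below 0, beside 51.8% of all tested genes, and the list's median was -0.13. Syt1, a synaptic vesicle calcium sensor, was at 939.7 ± 20.8 and 1034 ± 66.7 CPM (log2 fold change 0.14, edgeR adjusted p = 0.110). In whole retina its level cannot be assigned to ganglion cells. Vsnl1, a neuronal calcium-binding protein, was at 109 ± 7.70 and 95.7 ± 5.49 CPM (log2 fold change -0.19, edgeR adjusted p = 0.0629). Of the 4 relatives of Sncg and Slc17a6 none passed with edgeR (1 had an unadjusted p under 0.05, and 0 passed with DESeq2 or limma-voom), and Sncb was at 237.5 ± 31.0 and 202 ± 29.8 CPM (log2 fold change -0.23, edgeR adjusted p = 0.156).

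Among 20 tested genes that mark ganglion cell subtypes, 1 fell and 1 rose, beside 5.30% of all tested genes lower and 5.95% higher. Mmp17, a membrane-bound matrix metalloproteinase, was at 24.14, 22.37, 22.89, 26.14 and 22.04 CPM with AAV2-GFP and at 14.6, 15.1, 18.6, 13.5 and 18.3 CPM with AAV206-GFP. The groups did not overlap, and the log2 fold change was -0.55 ± 0.11 (SE; edgeR adjusted p = 0.00358). Penk, the precursor of enkephalin peptides and a gene also of amacrine cells, was at 3.98, 2.69, 5.72, 3.71 and 4.96 CPM with AAV2-GFP and at 30.4, 10.6, 12.7, 6.28 and 8.82 CPM with AAV206-GFP. All AAV206-GFP mice were above all AAV2-GFP mice, with replicate 1 far above the rest (log2 fold change 1.70, standard error 0.35, edgeR adjusted p = 0.00593). Both genes passed in all 10 fits that left out 1 mouse. Without AAV2-GFP replicates 1 and 4 they passed again, with Cartpt and Neurod2 also lower, so that 3 of 21 fell and 1 rose. In that fit 2.85% of all genes were lower. The melanopsin gene Opn4 and Eomes, which mark intrinsically photosensitive ganglion cells, were at log2 fold changes of 0.21 and -0.13 and did not pass (edgeR adjusted p = 0.561 and 0.539).

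Of 17 tested genes of intermediate filaments and the axonal cytoskeleton, 2 fell and 1 rose. Over all tested genes 5.30% were lower and 5.95% higher. With 1 mouse left out, 0 fell without AAV2-GFP replicate 4, where 991 of all 15702 genes passed in either direction. Without AAV2-GFP replicate 1, 4 fell, where 1912 of 15699 passed. In the fits without AAV2-GFP replicate 2, 3 or 5 or AAV206-GFP replicate 1, 2 or 3, 1 fell each time. Between 1074 and 1796 of all genes passed in those fits. With DESeq2, by which 14.5% of all genes passed, 4 fell, Tubb2b and Stmn3 being added, and with limma-voom 3. Ina, the neuronal filament protein alpha-internexin that assembles with the neurofilament chains, was at 124 ± 6.29 and 107.5 ± 4.71 CPM (SD, n = 5, log2 fold change -0.20, edgeR adjusted p = 0.0344). Ina carried decimals in all 10 libraries, its groups overlapped, and leaving out any of AAV2-GFP replicates 2 to 5 or AAV206-GFP replicates 1 to 3 ended the call (largest edgeR adjusted p = 0.0866). Dpysl2 and Dpysl3 encode collapsin response mediator proteins, which act in axon growth, and moved in opposite directions. Dpysl2 fell from 115 ± 8.83 to 95.3 ± 5.05 CPM (log2 fold change -0.27, edgeR adjusted p = 0.0159). Without AAV2-GFP replicate 4 it did not pass (edgeR adjusted p = 0.0517). Without both replicates 1 and 4, Stmn3, a regulator of microtubules, was the 1 gene of the list to fall and Dpysl3 the 1 to rise. Dpysl3 rose, from 289, 284, 233, 254.6 and 257.5 CPM with AAV2-GFP to 320.4, 334, 339.6, 378 and 384 CPM with AAV206-GFP, without overlap (log2 fold change 0.41, standard error 0.07, edgeR adjusted p = 0.00192).

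**Figure D4:**
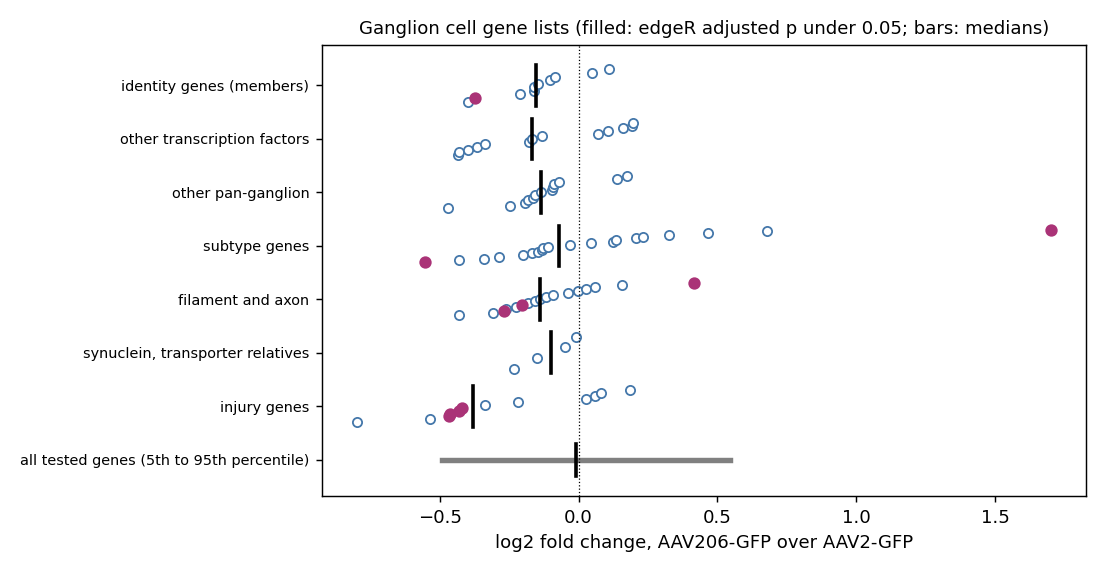
Log2 fold changes of the tested genes of each ganglion cell list, filled where the edgeR adjusted p was under 0.05, with list medians as bars and the 5th to 95th percentile of all tested genes (-0.49 to 0.55) in grey. The injury list has the lowest median (-0.38), and Penk is the point at 1.70.

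Of 12 tested genes induced in injured ganglion cells, 4 fell and none rose with AAV206-GFP, with a list median of -0.38. Over all tested genes 5.30% were lower and 5.95% higher. The decreases were in the stress transcription factors Jun (61.2 ± 3.90 to 45.4 ± 6.20 CPM), Ddit3 (39.3 ± 5.39 to 29.4 ± 2.55 CPM), Klf6 (24.8 ± 3.86 to 17.97 ± 3.12 CPM) and Atf3 (11.4 ± 0.884 to 8.27 ± 1.20 CPM; SD, n = 5 in each group). Their log2 fold changes were -0.43, -0.42, -0.47 and -0.46 (edgeR adjusted p = 0.00471, 0.0112, 0.0314 and 0.0329). Earlier results for Jun, Ddit3 and Atf3 were known when the list was written, so the list is not independent evidence of the direction. Without AAV2-GFP replicates 1 and 4, 2 of the 12 passed as lower, Jun and Ddit3, and Klf6 and Atf3 did not. In that fit 2.85% of all genes were lower. Klf6 also lost its call without AAV2-GFP replicate 1 or 4 or AAV206-GFP replicate 1, 2 or 4 (edgeR adjusted p up to 0.084). Atf3 did so without AAV2-GFP replicate 1, 3 or 5 or AAV206-GFP replicate 1, 2 or 3 (up to 0.085). Jun and Ddit3 are made by many retinal cells, and in whole retina none of the 4 levels can be assigned to ganglion cells. Klf6 (30.5 CPM) and Atf3 (12.4 CPM) were highest in AAV2-GFP replicate 1, the library high in immune genes. Jun and Ddit3 were highest in AAV2-GFP replicate 3.

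The genes whose levels followed Pou4f1 most closely over the 10 libraries were in none of the ganglion cell lists. Among 15190 genes of at least 1 CPM, the 5 highest Pearson correlations of log2(CPM + 1) with Pou4f1 were those of Otx2 (r = 0.974), Ssbp2 (0.962), Fgf11 (0.959), Mrpl24 (0.958) and Ahsa1 (0.958). They include Otx2, a photoreceptor and bipolar cell transcription factor, and Ahsa1, a co-chaperone. These values are high by selection and share the group difference. Taken as deviations from the group means they were between 0.807 and 0.911. Of the other 9 ganglion cell genes, Nefm came nearest with r = 0.790, at rank 626, and Rbpms was farthest with r = -0.377. On deviations from the group means the order was another: Thy1 was nearest (0.637), Nefm was at 0.186, below Rbpms at 0.227, and Slc17a6 was farthest (-0.076). All these are descriptions over 10 libraries, with no test.

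**Figure D5:**
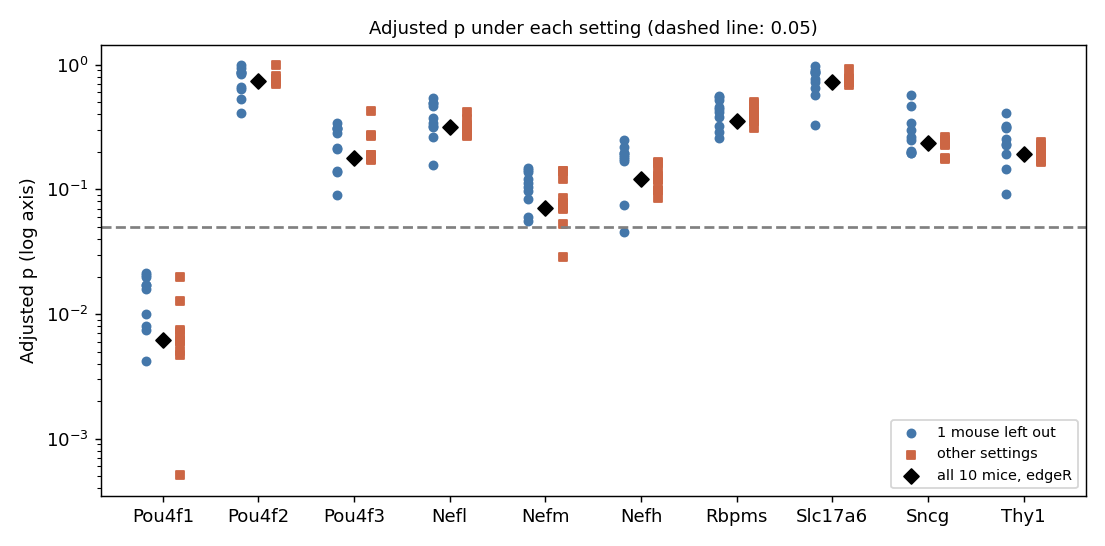
Adjusted p of each gene on a log axis with all 10 mice (black diamonds, edgeR), with 1 mouse left out (blue circles) and under the other settings (orange squares). Pou4f1 stays under the dashed line at 0.05 in all 20 alternatives, and Nefm and Nefh cross it 1 time each.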

How the data were processed

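RNA was measured in 10 retinas, 5 per vector, grouped by the titles in the labels. The values the authors deposited were expected counts per Ensembl gene, not scaled between libraries. Per the submitters' processing notes the tools were STAR 2.7.10b and RSEM 1.3.1 with build mm10. The annotation release and the strand setting of the counting are not given in the sources used here. Gene models and symbols came from GENCODE M21 (GRCm38, which is mm10) and named 98.4% of tested genes. Decimals occurred in 5.95% of values, so counts were rounded before modelling.

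The vectors were compared with edgeR 4.0.16 in R 4.3.3 (filterByExpr with minimum count 10, TMM factors, quasi-likelihood F test, no covariates, Benjamini-Hochberg adjustment over all 15539 genes, threshold 0.05). Standard errors were the log2 fold change divided by the root of F. Intervals are 95%. The procedure was also run on counts simulated from the dispersions of the same fit, which cannot show how well the fit describes the real data. Alternatives used DESeq2 1.42.0, limma-voom in limma 3.58.1, other scaling, filters and libraries, and the replicate number as a block.

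Counts per library were 10989843 to 12752604. The 10 genes and all lists were chosen with earlier results of these data known. All 10 genes were named. From each list up to 4 genes past the threshold with the smallest p were named, or the 2 most abundant where fewer than 2 passed, and Opn4, Eomes, Neurod2, Irx2, Nrn1, Stmn2, Nrgn, Cartpt, Stmn3 and Tubb2b were added after their values were seen.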

Additional observations from a re-analysis of the deposited data

Results flagged for a closer look

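In 1 of 20 group results examined (10 genes in both groups of 5 mice), 1 mouse lay far from the others of its group. Sncg was at 58.8 CPM in AAV2-GFP replicate 3 against 39.6 to 44.1 CPM in the other AAV2-GFP mice. The gap to the next mouse was 0.763 of the group's range, above Dixon's limit of 0.710 for 5 samples. By chance 1 in 20 groups would be singled out in this way, which is 1.0 of the 20 examined.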

How the results depend on the processing

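Pou4f1 was lower and past the threshold in all 10 fits that left out 1 mouse (adjusted p 0.00419 to 0.0213 with edgeR) and in all 10 other settings (0.000511 to 0.0199), and none of the 10 ganglion cell genes changed direction in any of these 20. The number of the 10 genes past the threshold was 1 throughout except for 2 with DESeq2, which added Nefm, and between 1 and 2 over the fits that left out 1 mouse, where Nefh was added without AAV2-GFP replicate 1. The number of all genes past the threshold was 1747, and 985 without AAV2-GFP replicates 1 and 4. Over the fits that left out 1 mouse it was between 991 and 1912, the latter without AAV2-GFP replicate 1. It moved by more than 1.5 times without AAV2-GFP replicate 4 (991), AAV206-GFP replicate 2 (1074) or AAV206-GFP replicate 4 (1056). The replicate numbers did not pair the mice, since same-numbered libraries had correlations of deviations between -0.0518 and 0.0405 and only 1 of 5 matched its own number best. The replicate block gave 1085 genes, with Pou4f1 at -0.37 (edgeR adjusted p = 0.0199). Taking the longest transcript as gene length moved 4 of the 10 levels per kilobase by more than 1 SD. Of the list genes named as changed, the edgeR fit with the replicate block did not call Ina (adjusted p = 0.0781), Dpysl2 (0.0573), Klf6 (0.0566) or Atf3 (0.0727). This left 0 of the filament and axon genes and 2 of the injury genes lower. In that fit 1085 of all 15539 genes passed in either direction, against 1747 without the block. With no filter on low counts, where 1825 of 28442 genes passed, edgeR did not call Ina (adjusted p = 0.0507) or Atf3 (0.0572). The causes were not tested. Pou4f3 had 47 to 97 counts per library, at which counting alone gives a spread of 12.1% of its mean.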
